A study of Mus musculus with 11 samples.

Results

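The lysosomal genes described here are 41 genes for acid hydrolases, lysosomal membrane proteins and the proton pump, found by symbol among the 55401 genes of the count tables. They were measured in polyadenylated RNA from the hippocampus of 11 female F1 mice from reciprocal crosses of BL6, a laboratory strain, and CAST, a wild-derived strain. The old group held 5 mice of 101 to 104 weeks, of which 3 had a BL6 mother and CAST father and 2 a CAST mother and BL6 father. The young group held 6 mice of 8 to 9 weeks, with 3 mice from each cross. The labels used here name no transgene and no drug treatment. The allele columns named i4fb were taken as BL6, and whether that name marks a modified BL6 line was not checked. Each library came from 1 mouse, and all mice were female hybrids, so that inbred and male mice are outside the comparison. Age was compared within the study's question of how gene regulation holds up in the aged brain, and the hybrid genome let reads be assigned to the BL6 or CAST copy of a gene.

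Lysosomes are the acid compartments in which cells break down proteins, glycans and lipids taken up from outside or delivered by autophagy. A proton pump, the V-ATPase, keeps the lumen acid, soluble hydrolases cut the cargo, and membrane proteins protect the membrane and export the products. In the brain, loss of single hydrolases causes storage diseases of neurons, and microglia, the resident phagocytes, carry large amounts of several lysosomal proteins. Neurons, astrocytes and microglia all express most of these genes, so a level in whole tissue mixes cell types, and in bulk tissue fewer cells of a type and less RNA per cell cannot be told apart.

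Total counts ran from 111.1 M to 214.8 M per mouse, and every member had at least 312 counts in every library. The labels do not name litters or dissection batches. Marker lists of neighbouring tissue, which describe the dissections, varied widely. The summed level of 8 striatal neuron markers was 115.6 to 887.1 CPM (reads of a gene relative to library size, scaled by the trimmed mean of M-values method, TMM) in old and 104.6 to 2506 CPM in young mice, highest in young replicates 2 and 6 and old replicate 3. The sum of 6 choroid plexus markers was 23.7 to 992.9 CPM in old and 20.61 to 927.9 CPM in young mice. That of 4 thalamic neuron markers was 38.17 to 111.5 CPM in old and 25.61 to 354 CPM in young mice, highest in young replicate 1. The 6 markers of pyramidal and granule neurons were present in every library at sums of 3244 to 6843 CPM. Most of each sum came from Camk2a (2083 to 4529 CPM) and Slc17a7 (786.1 to 1654 CPM). Neither gene is particular to the hippocampus, so the sum alone does not check the labelled tissue.

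Compared per gene length, as TPM values, the members spanned a wide range of levels. Psap, the precursor of the saposins that help hydrolases reach their lipids, had the highest median level, 932.9 TPM (739.5 to 1204 TPM over the 11 mice). The aspartic protease gene Ctsd followed at a median of 168.1 TPM (115.6 to 241.7), then Lamp1, a glycoprotein of the lysosomal membrane, at 121.3 TPM, and the cysteine protease gene Ctsb at 106.1 TPM. The range of Ctsd overlapped with those of Lamp1 (92.52 to 159.1 TPM) and Ctsb (80.84 to 142.4 TPM), and Psap lay above all of them in every mouse. The lowest median levels were those of Manba, which cuts mannose from glycans, at 2.458 TPM and of the aminopeptidase gene Ctsh at 2.459 TPM, and their ranges overlapped. The microglia-enriched members were mostly low in the tissue, from Ctsz at 32.38 TPM and Grn at 19.55 TPM to Laptm5 at 8.132, Cd68 at 6.41, Tcirg1 at 3.801, Ctsc at 2.555 and Ctsh at 2.459 TPM.

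Many lysosomal promoters carry E-box sites bound by TFEB and TFE3, the transcription factors that coordinate lysosome formation, and these sites share the core CACGTG. The RefSeq promoter table (GRCm38.p6, 250 bases before to 50 bases after each gene's start) held 37 of the 41 members and not Ctsb, Ctsh, Asah1 and Npc1. On either strand, CACGTG occurred in the promoters of 12 of these 37 members (32.4%), against 8.09% of all genes with a promoter in the table. The longer palindrome TCACGTGA, which contains the former, occurred in 4 members (10.8%, against 1.12% of all genes), and the full 10-base palindrome of the CLEAR element, which contains both, in 0 members (0.37% of all genes). GAGGAAGT, a form of the site of the myeloid factor PU.1, occurred in 3 members, Ctsc, Gla and Gusb (8.11%, against 3.69% of all genes). The stretches around TCACGTGA in Ctsa (chr2:164833740-164833772, plus strand), Ctsd (chr7:142387899-142387946, minus strand), Gla (chrX:134601173-134601253, minus strand) and Mcoln1 (chr8:3500453-3500500, plus strand), all upstream of the start in the RefSeq table, are shown because these 4 members hold the longer palindrome. Capitals mark TCACGTGA, and each sequence is read 5′ to 3′ on the gene's strand.
Ctsa: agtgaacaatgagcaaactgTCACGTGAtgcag
Ctsd: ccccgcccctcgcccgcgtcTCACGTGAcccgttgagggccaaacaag
Gla: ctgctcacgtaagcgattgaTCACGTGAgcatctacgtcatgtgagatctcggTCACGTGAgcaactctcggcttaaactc
Mcoln1: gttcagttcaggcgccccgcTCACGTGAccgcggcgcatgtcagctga
The start in the RefSeq table can differ from that of the GENCODE M21 gene: the windows of Ctsa and Ctsd lie inside the GENCODE gene, as does most of that of Mcoln1. The window of Gla holds the palindrome 2 times, and Ctsa has another TCACGTGA just after its RefSeq start, beyond the stretch shown. A match of letters is a description of the sequence and no evidence of binding.

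Lysosomal genes measured slightly higher in old than in young hippocampus, and no single member passed the test. Of the 41 members, 0 were called at an edgeR adjusted p under 0.05, against 0.34% of the 30568 genes tested. The fitted log2 difference, old minus young, was positive for 36 members and negative for 5, against 47.7% of all genes tested above 0, and its median was 0.17 over the members and -0.01 over all genes tested. An unadjusted p under 0.05 was reached by 16 members with a higher and 0 with a lower level in old mice, against 6.88% and 5.59% of all genes tested. In 4 members, Laptm5, Cd68, Ctsd and Sgsh, every old mouse lay above every young mouse, against 1.14% of all genes tested, and in 0 members every old mouse lay below, against 0.71%. DESeq2, run as an alternative, called 2 members, Laptm5 and Tcirg1 (adjusted p = 0.0209 and 0.0123), against 1.59% of the genes it tested and 0.858% of them with a higher level in old mice. Members are not independent of each other, and these counts describe the list. Without the 3 libraries rich in striatal markers, 36 members were still positive, 0 were called and 7 had an unadjusted p under 0.05. Within mice of a BL6 mother alone 38 members were positive, with 9 higher and 0 lower in old mice at an unadjusted p under 0.05. Within mice of a CAST mother alone these counts were 28, 11 and 1. DESeq2 had 34 members positive and 11 higher at an unadjusted p under 0.05, and edgeR with relative log expression scaling 34 and 12. On leaving out single mice 32 to 38 members were positive. The count at an unadjusted p under 0.05 was 7 without young replicate 3 and 9 without young replicate 1 or old replicate 2. It was 10 without old replicate 3 or young replicate 6, and 11 to 17 without any other mouse. The 4 members without overlap were all lowest in young replicate 1, the library with the highest thalamic marker sum. That library also had the lowest sum of homeostatic microglia markers, 151.9 CPM, and of pyramidal and granule neuron markers, 3244 CPM. The part of thalamic tissue in the age differences was not tested.

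**Figure D1:**
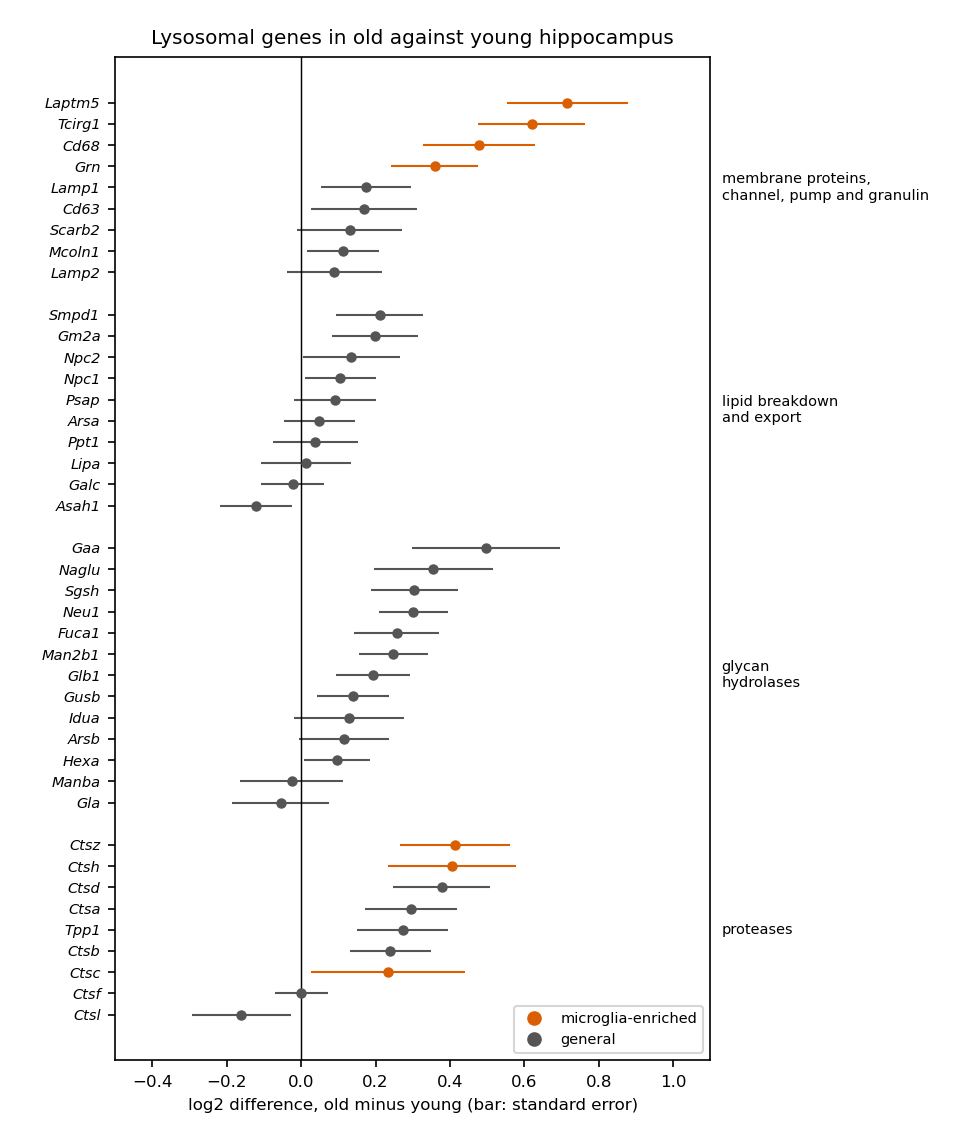
Fitted log2 difference, old minus young, of each of the 41 lysosomal genes (point) with its standard error (bar), grouped by role; orange points are the 7 microglia-enriched members. The 9 membrane protein, channel, pump and granulin genes are all above 0, and the 4 highest of them are microglia-enriched.

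The membrane proteins, channel, pump and granulin were positive in 9 of 9 members, with a median log2 difference of 0.17, and 4 had an unadjusted p under 0.05. Laptm5, a lysosomal membrane protein of blood-derived and microglial cells (chromosome 4, 130913125 to 130936141), measured 17.93, 19.53, 18.68, 21.48 and 17.76 CPM in the old mice. In young mice it measured 7.694 CPM at the lowest, 11.64 CPM at the median and 15.09 CPM at the highest. Every old mouse lay above every young mouse, and the young mice spread the more widely. The log2 difference was 0.72 with a standard error (SE) of 0.16 (1.64-fold, edgeR adjusted p = 0.121).

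Tcirg1, the a3 subunit of the V-ATPase used by osteoclasts and phagocytes (chromosome 19, 3896050 to 3907133), measured 8.785, 12.62, 15.64, 12.54 and 9.104 CPM in the old mice. In young mice it ran from 6.793 CPM over a median of 7.385 CPM to 9.783 CPM in young replicate 2. That single young mouse overlapped with old replicates 1 and 5, and the other young mice lay below all old mice. The log2 difference was 0.62 (SE 0.14, edgeR adjusted p = 0.132).

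Cd68, a glycoprotein of late endosomes and lysosomes in phagocytes (chromosome 11, 69664213 to 69666153), measured 3.977, 4.345, 4.685, 4.207 and 4.495 CPM in the old mice and 2.365 to 3.646 CPM in the young mice, with a median of 3.384. The groups did not overlap, and the log2 difference was 0.48 (SE 0.15, edgeR adjusted p = 0.292). Grn, which encodes progranulin, a secreted protein that is cut into granulins in lysosomes, measured 35.56 to 42.42 CPM in old and 26.12 to 38.12 CPM in young mice. Its log2 difference was 0.36 (SE 0.12, edgeR adjusted p = 0.303), and young replicates 4 and 5 lay within the old range. The members found in most cells differed less, with log2 differences of 0.17 for Lamp1, 0.17 for the tetraspanin gene Cd63, 0.13 for Scarb2, which carries glucocerebrosidase to lysosomes, 0.11 for the calcium channel gene Mcoln1 and 0.09 for Lamp2.

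**Figure D2:**
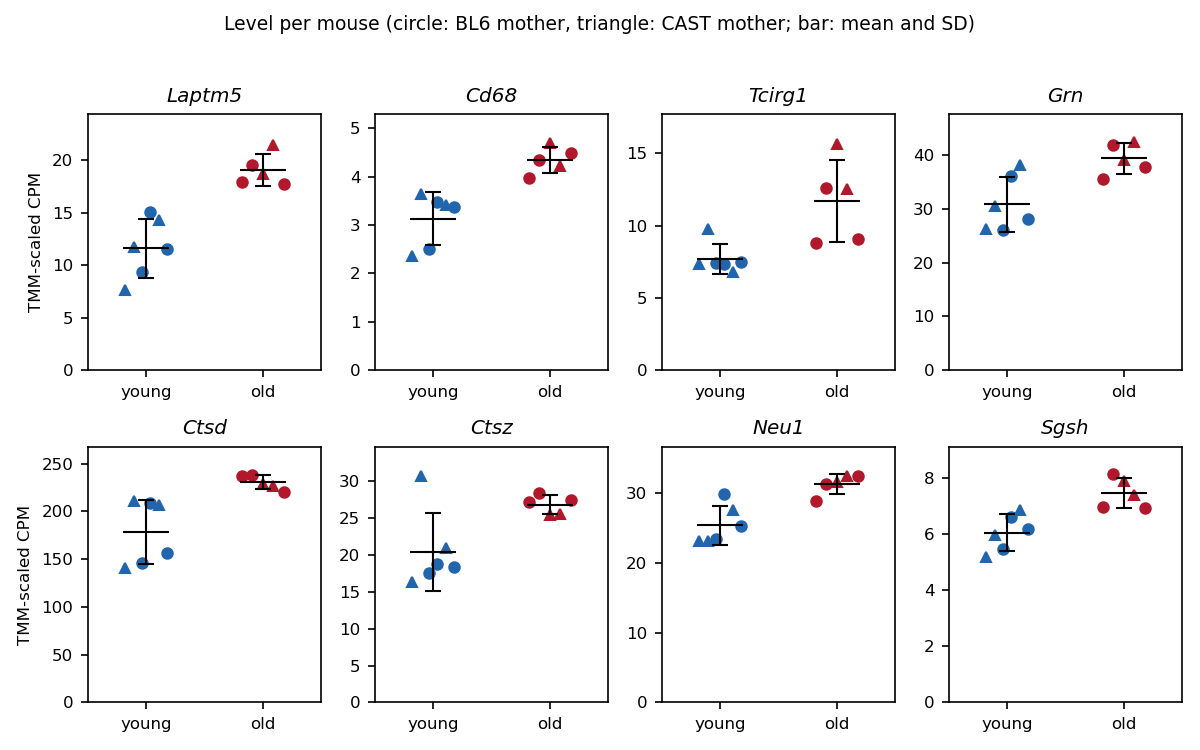
TMM-scaled CPM per mouse (vertical axis, from 0) in young (blue) and old (red) mice for 8 lysosomal genes, with circles for a BL6 mother, triangles for a CAST mother, and bars for the mean and SD. In Laptm5, Cd68, Ctsd and Sgsh the age groups do not overlap, and in Tcirg1 and Ctsz the highest young mouse is young replicate 2, at 9.783 and 30.78 CPM.

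Proteases had a median log2 difference of 0.27, with 8 of 9 positive and 6 at an unadjusted p under 0.05. Ctsd, the main aspartic protease of lysosomes (chromosome 7, 142375911 to 142388038), measured 237.4, 238.4, 228.7, 226.9 and 220.5 CPM in the old mice. The young mice ran from 140.9 CPM over a median of 181.3 CPM to 211.3 CPM. The old mice were close together and all lay above the young mice, of which replicates 1, 3 and 6 were low. The log2 difference was 0.38 (SE 0.13, edgeR adjusted p = 0.324).

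Ctsz, a carboxypeptidase (chromosome 2, 174427493 to 174439039), measured 27.19, 28.4, 25.49, 25.56 and 27.52 CPM in the old mice and 16.41 to 21.01 CPM in 5 of the young mice. Young replicate 2, the library with the highest striatal marker sum, stood apart at 30.78 CPM, above all old mice. Young replicate 6, with the next highest striatal sum, measured 18.33 CPM. With all mice the log2 difference of Ctsz was 0.41 (edgeR adjusted p = 0.336), and without young replicate 2 it was 0.54 (edgeR adjusted p = 0.0464). Ctsa, a carboxypeptidase that also protects the sialidase and beta-galactosidase, differed by 0.29 (edgeR adjusted p = 0.375), and the aminopeptidase gene Ctsh by 0.41 (edgeR adjusted p = 0.380). Ctsc, which activates serine proteases of immune cells, differed by 0.23 (edgeR adjusted p = 0.656), with old mice at 7.698 to 10.22 CPM inside the young range of 5.006 to 10.97 CPM. Its log2 difference was 0.111 without young replicate 6, 0.138 without young replicate 3 and 0.15 without old replicate 2. Ctsl, a cysteine protease, was the only protease with a negative value, -0.16, and Ctsf stood at 0.00 with an SE of 0.07.

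The 13 glycan hydrolases had a median log2 difference of 0.19, with 11 positive and 6 at an unadjusted p under 0.05. Neu1, the lysosomal sialidase, measured 28.97, 31.36, 31.68, 32.51 and 32.52 CPM in the old mice and 23.18 to 29.86 CPM in the young mice, with a median of 24.39. Only young replicate 4 reached the old range, and the log2 difference was 0.30 (SE 0.09, edgeR adjusted p = 0.277). Sgsh, the sulfamidase of heparan sulfate breakdown (chromosome 11, 119343425 to 119355536), measured 6.95, 8.13, 7.873, 7.394 and 6.941 CPM in the old mice and 5.177 to 6.86 CPM in the young mice. Its groups did not overlap, but by a narrow margin, and the log2 difference was 0.30 (SE 0.12, edgeR adjusted p = 0.351).

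Man2b1, which removes mannose from glycoproteins, differed by 0.25 (edgeR adjusted p = 0.347). Gaa, the acid glucosidase that degrades glycogen, had the largest log2 difference of this class, 0.50, with a wide SE of 0.20 (edgeR adjusted p = 0.360) and levels of 218.9 to 347.3 CPM in old and 128.3 to 255.9 CPM in young mice. Gla, the alpha-galactosidase, and Manba had small negative values of -0.06 and -0.03. Exons of 16 members, among them Ctsd, Ctsz, Ctsa, Grn and Sgsh, overlap exons of other genes, and part of their counts may belong to those neighbours. For most of them the other gene is on the opposite strand, and no source used here says whether counting used strand. Ctsd, Ctsl and Glb1 each overlap a gene on the same strand.

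Lipid breakdown and export genes differed least, with a median log2 difference of 0.07, 8 of 10 positive and 0 at an unadjusted p under 0.05. Smpd1, acid sphingomyelinase, measured 53.38 to 66.55 CPM in old and 41.99 to 67.99 CPM in young mice, a log2 difference of 0.21 (edgeR adjusted p = 0.471). Gm2a, the activator that presents ganglioside to hexosaminidase A, differed by 0.20 (edgeR adjusted p = 0.488). Asah1, acid ceramidase, differed by -0.12 (edgeR adjusted p = 0.616), with old mice at 23.31 to 27.99 CPM and young mice at 22.76 to 29.43 CPM. The cholesterol exporters Npc1 and Npc2 differed by 0.11 and 0.13, Psap by 0.09 and Galc, the galactosylceramidase of myelin turnover, by -0.02. All of these ranges overlapped between the ages.

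Members with and without the E-box core had similar age differences. The 12 members with CACGTG in the promoter had a median log2 difference of 0.18, with 10 positive, and the 25 members with a promoter but without CACGTG a median of 0.17, with 23 positive. Among the 4 members whose windows are shown above, Ctsa and Ctsd differed by 0.29 and 0.38, Mcoln1 by 0.11 and Gla by -0.06.

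Microglia-enriched members had larger age differences than general members. The 7 microglia-enriched members are Cd68, Laptm5, Ctsc, Ctsh, Ctsz, Tcirg1 and Grn, and they had a median log2 difference of 0.41 (range 0.23 to 0.72), with 7 of 7 positive, 6 at an unadjusted p under 0.05 and 2 without overlap. The 34 general members had a median of 0.13 (range -0.16 to 0.50), with 29 positive, 10 at an unadjusted p under 0.05 and 2 without overlap. The medians thus differed by 0.28, and with each old mouse set against the young mice the difference was 0.21, 0.38, 0.37, 0.33 and 0.13 in old replicates 1 to 5 (SD 0.113). A wider list that adds Ctsd, Ctsb, Npc2, Gusb and Man2b1 had a median of 0.37, against 0.12 in the 29 members left. The difference between these lists is a description with no test, and the lists were chosen with earlier results of these data known.

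Markers of microglia themselves also measured higher in old mice. The summed level of 12 homeostatic microglia markers was 253.8 to 291.2 CPM in old and 151.9 to 252.3 CPM in young mice, with 12 of 12 positive, 9 at an unadjusted p under 0.05, 0 called by edgeR, 0 called by DESeq2 and a median log2 difference of 0.41. Markers of perivascular macrophages, the other resident phagocytes, went the other way, at 5.196 to 7.206 CPM in old and 6.607 to 16.84 CPM in young mice. Of these 7 markers 0 were positive, 5 were lower at an unadjusted p under 0.05 and 0 were called by edgeR or DESeq2. Their median log2 difference was -0.63. Markers of oligodendrocyte precursors also measured lower, at 112.6 to 136.3 CPM in old and 145.1 to 188.2 CPM in young mice without overlap, with 0 of 4 positive and 1 called, Gpr17 (log2 difference -0.87, edgeR adjusted p = 0.00126). Lymphocyte and monocyte markers summed to 0.6778 to 1.416 CPM in old and 0.6667 to 1.038 CPM in young mice. All 6 markers of pyramidal and granule neurons were positive as well, at 4066 to 6843 CPM in old and 3244 to 6369 CPM in young mice. With the mean of these neuron markers as a term, 28 members were positive and 6 had an unadjusted p under 0.05. The part of the markers of perivascular macrophages, lymphocytes and oligodendrocyte precursors in the age difference was not tested.

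With the mean of the 12 microglia markers as a term, 21 of the 41 members were positive and 1, Tcirg1, had an unadjusted p under 0.05. The log2 difference of Laptm5 was then 0.24 (edgeR adjusted p = 0.565), that of Cd68 0.20, of Ctsz 0.15, of Grn 0.07, of Ctsh 0.05 and of Ctsd 0.01. Ctsc stood at -0.27. Tcirg1 differed by 0.73 with the term and 0.62 without it (edgeR adjusted p = 0.539 with the term). The median of the microglia-enriched members then exceeded that of the general members by 0.165. The marker sums of the age groups do not overlap, so the term itself moves with age, and more microglia and more RNA per microglial cell cannot be told apart.

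**Figure D3:**
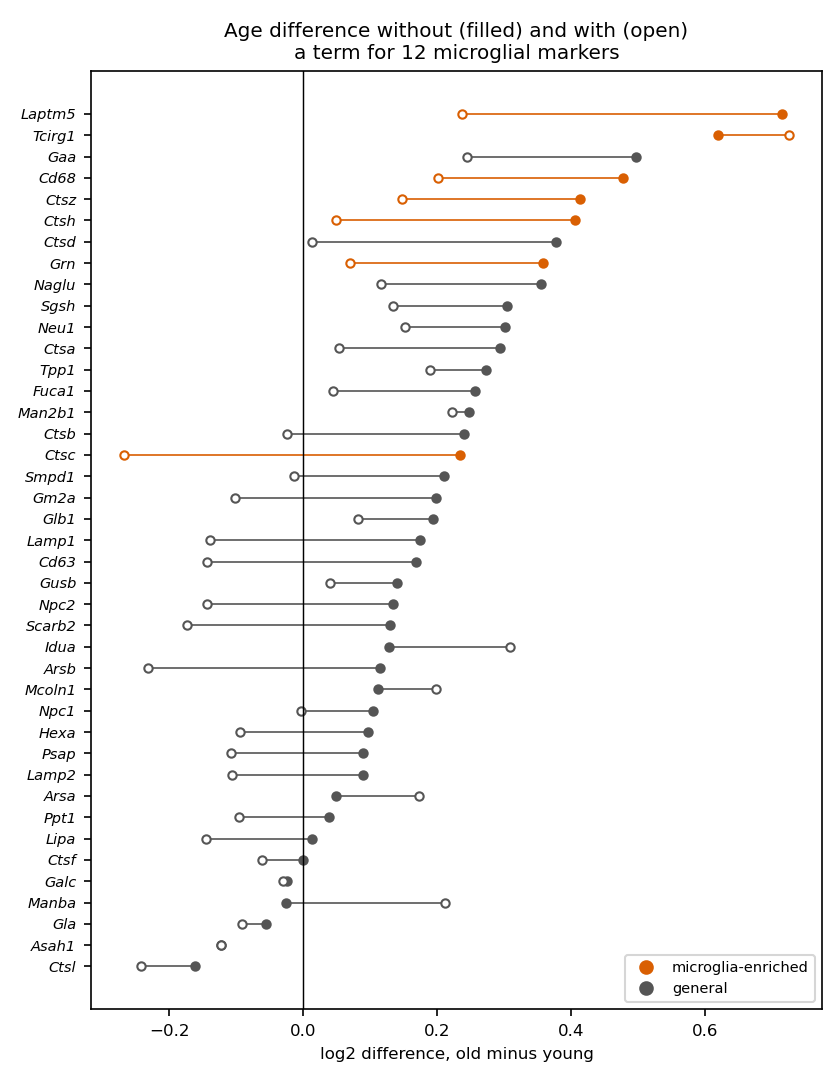
Log2 difference, old minus young, of the 41 members without (filled) and with (open) the mean of 12 microglial markers as a term, orange for microglia-enriched members. Laptm5 moves from 0.72 to 0.24 and Ctsd from 0.38 to 0.01, while Tcirg1 moves from 0.62 to 0.73.

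Other lysosomal genes outside the 41 members also had small positive medians, with 2 genes called by edgeR. Of 22 other hydrolases and activators, 19 were positive with a median log2 difference of 0.14, and Ctss, the cysteine protease of antigen-presenting cells, rose from 25.95 ± 4.36 CPM (SD, n = 6) in young to 47.75 ± 9.06 CPM (SD, n = 5) in old mice, which is 0.87 on the log2 scale (edgeR adjusted p = 0.0364). Of 19 other membrane proteins tested, 15 were positive with a median of 0.12, and Slc11a1, a metal ion transporter of phagosomes, rose from 1.39 ± 0.186 CPM to 2.77 ± 0.458 CPM, which is 1.00 on the log2 scale (edgeR adjusted p = 0.0321). No old mouse overlapped with a young mouse in either gene. Ctsk, a cysteine protease of osteoclasts, went the other way without overlap, at 1.688 to 2.263 CPM in old and 2.27 to 2.926 CPM in young mice (log2 difference -0.45, edgeR adjusted p = 0.296). DESeq2 called 2 of the other hydrolases, Ctss and Ctsk (adjusted p = 0.0258 for Ctsk), and 1 of the other membrane proteins. Ctsk was named after its value was seen. The 18 V-ATPase subunits had 12 positive, 0 called by edgeR, 0 at an unadjusted p under 0.05, 0 called by DESeq2 and a median of 0.07, and the smallest p were those of Atp6v0d1 (0.23, edgeR adjusted p = 0.428) and Atp6v1e1 (0.23, edgeR adjusted p = 0.461). Of 16 sorting receptors and regulators 15 were positive, 0 were called by edgeR, 3 had an unadjusted p under 0.05, 0 were called by DESeq2 and the median was 0.13. Nagpa, which uncovers the mannose 6-phosphate tag of hydrolases, differed by 0.41 (edgeR adjusted p = 0.296), and the transcription factor gene Tfe3 by 0.33 (edgeR adjusted p = 0.305).

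The direction of the cross was compared to see whether the mother's strain moves total levels. Of the 41 members 0 were called between mice with a CAST and a BL6 mother, against 0.206% of all genes tested, 0 had an unadjusted p under 0.05, against 2.05%, and DESeq2 called 0. The members with the smallest p were Lipa, the acid lipase of cholesterol esters, at a log2 difference of 0.23 (CAST mother minus BL6 mother), Tcirg1 at 0.27 and Ctsh at 0.27, each with an edgeR adjusted p of 1.00.

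Whether the age difference itself depended on the cross was tested by an interaction term. It called 0 members and 0 of 31355 genes in edgeR, and 7 members had an unadjusted p under 0.05, against 11.8% of all genes tested, while DESeq2 called 0 members. The 3 with the smallest p were Ctsl, Idua and Cd63. Ctsl differed between the ages by 0.11 within mice of a BL6 mother and by -0.50 within mice of a CAST mother (interaction -0.66, edgeR adjusted p = 0.418). Idua, which cuts iduronic acid from glycosaminoglycans, differed by -0.17 and 0.51 (interaction 0.62), and Cd63 by 0.41 and -0.13 (interaction -0.60), with the same adjusted p. The difference of Tcirg1 was 0.44 within mice of a BL6 mother and 0.85 within mice of a CAST mother, and that of Ctsz 0.59 and 0.20, and neither interaction passed (edgeR adjusted p = 0.566 and 0.501).

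The BL6 share of reads was measured for 40 of the 41 members, since Arsa, the arylsulfatase of sulfatide breakdown, had 0 allelic reads in all mice. Of the 38 autosomal members 34 were called between the BL6 and CAST copies, against 65.5% of autosomal genes, with 25 higher from the BL6 copy, against 40.9%, and 9 higher from the CAST copy, against 24.6%. The autosomal genes include all with a mean of 10 or more allelic reads per mouse, while the members ran from 18.73 in Cd68 to 105200 in Psap. Calls depend on read depth, and the shares were not compared at like depth. Most of these differences were small. A log2 difference between the copies beyond 0.5 either way was seen in 6 of these members, against 27.5% of autosomal genes, and the median size was 0.28, against 0.25. The median log2 difference of the 38 autosomal members was 0.22, against 0.07 over all autosomal genes, so that the tables as a whole lean slightly to BL6. The 9 lipid breakdown and export genes with allelic reads were all called higher from the BL6 copy, and of the 7 microglia-enriched members 3 were higher from BL6 and 1 from CAST.

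**Figure D4:**
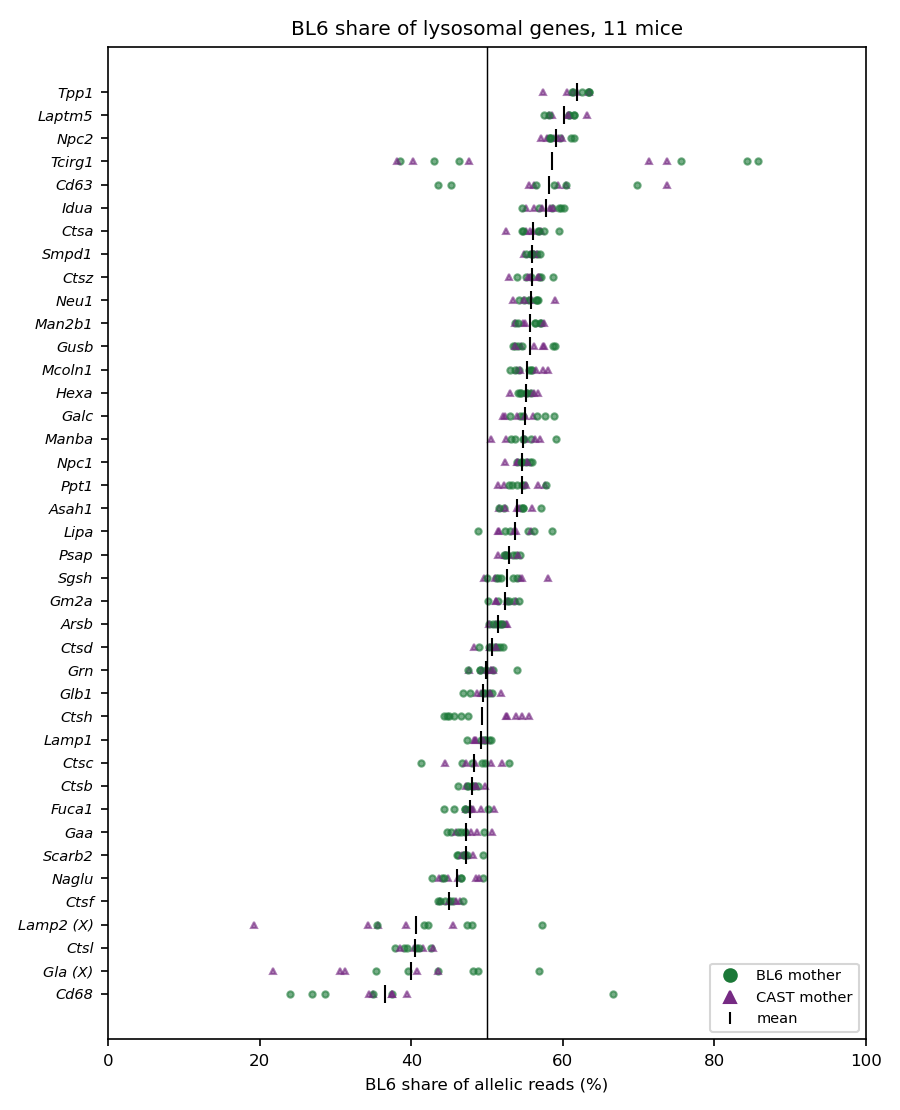
BL6 share of allelic reads in percent (horizontal axis) for the 40 lysosomal genes with allelic reads, with a point per mouse (circle for a BL6 mother, triangle for a CAST mother) and a bar for the mean. Tpp1 lies above 50% and Ctsl below it in all 11 mice, Ctsh splits by the mother, and Tcirg1 and the X-linked Lamp2 and Gla spread widely.

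Tpp1, a tripeptidyl peptidase lost in a childhood storage disease, had the largest BL6 share, 61.8% ± 1.82 (SD, n = 11), with 57.4% at the lowest and 63.5% at the highest, a log2 difference of 0.70 (edgeR adjusted p = 2.3e-13). Laptm5 followed at 60.2% ± 1.80 (log2 difference 0.58), the cholesterol carrier Npc2 at 59.1% ± 1.33 (0.52) and Tcirg1 at 58.6% ± 19.4 (0.50). In Tpp1, Laptm5 and Npc2 all 11 mice lay above 50%. In Tcirg1, 5 mice lay above 50%, all of them young.

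Toward CAST, Ctsl stood at 40.4% ± 1.63 BL6 (log2 difference -0.56, edgeR adjusted p = 1.1e-12), Ctsf at 45.0% ± 1.08 (-0.29) and Naglu, which acts on heparan sulfate, at 46.0% ± 2.28 (-0.23). All 11 mice lay below 50% in each of these 3 genes. Cd68 had the lowest share, 36.6% ± 11.1 (log2 difference -0.85, edgeR adjusted p = 0.00283), but only 6 to 33 allelic reads per mouse. Allelic reads made up 3.33% of the counts of Cd68, 4.59% of those of Tcirg1 and 0.838% of those of Cd63, so the shares of these 3 genes are the least precise. No source used here says how reads were assigned to alleles, and a bias toward the reference strain was not tested.

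Gla and Lamp2 lie on the X chromosome, where 1 copy is silenced in each cell of a female, so that their share reflects how many cells keep each X active. The median BL6 share over 533 X-linked genes ran from 20.4% in young replicate 1 to 56.5% in young replicate 3. Lamp2 stayed within -1.77 and 1.62 percentage points of the X median of its mouse, and Gla, with fewer reads, within -5.58 and 6.62. In the fit scaled to the X-linked total of each copy neither gene was called between the copies (log2 difference -0.09 for Lamp2 and -0.15 for Gla, edgeR adjusted p = 0.0789 and 0.108), against 56.1% of X-linked genes. Without young replicate 5 Lamp2 passed, at a log2 difference of -0.118 (edgeR adjusted p = 0.0269).

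The comparison of the maternal with the paternal copy called 1 member, Ctsh, against 0.874% of autosomal genes, and neither X-linked member, against 0.571% of X-linked genes. Ctsh (chromosome 9, 90054152 to 90076089) was higher from the paternal copy by a small margin. Its BL6 share was 46.5%, 45.7%, 45.0%, 44.7%, 47.5% and 44.4% in the 6 mice with a BL6 mother. In the 5 mice with a CAST mother it was 55.6%, 54.6%, 52.6%, 53.8% and 52.4%. The 2 groups of mice did not overlap. Between the BL6 and CAST copies, averaged over the crosses, the log2 difference was -0.01 (edgeR adjusted p = 0.934).

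The paternal copy gave 54.1% ± 1.24 of the reads (SD, n = 11) at 302 to 780 allelic reads per mouse, a log2 difference, maternal minus paternal, of -0.24 (SE 0.04, edgeR adjusted p = 0.00296). Permuting the mother's strain over the mice gave p = 0.002165, the smallest that 462 splits can give (exact permutation test, two-sided). It uses the same reads as the call and is not adjusted for the number of members compared, so it adds no separate support. Without young replicates 2 and 6 and old replicate 3, the 3 libraries rich in striatal markers, the log2 difference was -0.218 and did not pass (edgeR adjusted p = 0.214). The neighbouring gene Rasgrf1, known to be imprinted and paternally expressed in brain, ends 27174 bases before Ctsh on the same strand, and 85.9% ± 3.58 of its reads were paternal (SD, n = 11). Morf4l1, on the other side of Ctsh at 15575 bases, had a log2 difference between the maternal and paternal copies of -0.01 (edgeR adjusted p = 1.00). These 2 neighbours were chosen after their values were seen, and the part of reads from the neighbour in the share of Ctsh was not tested.

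The BL6 share by age was compared to see whether the balance of the copies shifts in old mice, and 1 member was called, Tcirg1, against 0.166% of autosomal genes. Its BL6 share was 38.5%, 43.0%, 47.6%, 40.2% and 46.3% in old mice. In young mice it was 73.7%, 38.1%, 75.6%, 85.7%, 71.4% and 84.3% in replicates 1 to 6. Young replicate 2 lay with the old mice, and the other 5 young mice lay above all of them. The log2 difference of the BL6 against the CAST copy changed by -1.76 from young to old mice (SE 0.33, edgeR adjusted p = 0.0288). Permuting the ages over the shares per mouse gave p = 0.01515 (exact permutation test, two-sided, 462 splits). That p uses the same reads as the call and is not adjusted for the number of members compared, so it adds no separate support.

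These shares rest on 38 to 126 allelic reads per mouse, with exact 95% binomial intervals such as 25.3% to 53.0% in old replicate 1 and 56.9% to 86.6% in young replicate 1, which cover counting error only. As reads relative to all allelic reads of the mouse (RPM), the CAST copy gave 0.861 ± 0.356 RPM in the old mice (SD over 5 mice) and 0.279 ± 0.177 in the young (SD over 6 mice). The BL6 copy gave 0.669 ± 0.337 in old and 0.723 ± 0.267 in young mice. The higher total of Tcirg1 in old mice was thus accompanied by more reads of the CAST copy. The call was lost on leaving out any of old replicates 1, 2, 3 or 4 or young replicates 1, 4 or 6, with log2 values of -1.61 to -1.88 and adjusted p of 0.0563 to 0.174 in edgeR, and without young replicate 2 the value was -2.18 (edgeR adjusted p = 2.99e-04).

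**Figure D5:**
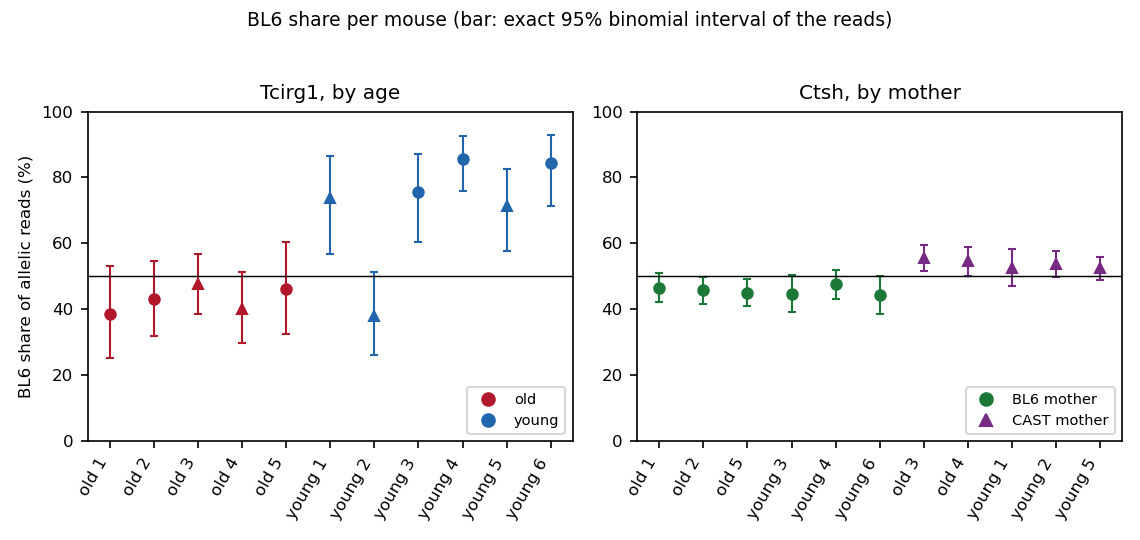
BL6 share of allelic reads in percent per mouse with exact 95% binomial intervals, for Tcirg1 ordered by age (left) and Ctsh ordered by mother (right). Old mice lie at 38.5% to 47.6% for Tcirg1, as does young replicate 2 at 38.1%, and Ctsh lies below 50% in all mice with a BL6 mother and above it in all with a CAST mother.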

How the data were processed

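Hippocampal RNA of 11 female mice was sequenced with a directional polyA kit, 1 library per mouse, per the labels' protocols. Per the submitters' processing notes, the tools were bcl2fastq 2.20, Trim Galore 0.6.6, HISAT2 2.1.0, SAMtools 1.10 and featureCounts of Subread 2.0.0, on GRCm38. No source used here gives the annotation, the strand setting or the method of allele assignment. The authors deposited raw counts per gene, counts per gene and allele (columns named i4fb, taken here as BL6, and cast, per the file headers) and TPM values, scaled to the same sum in each library. TPM was used only to compare levels between genes.

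Counts of all genes past filterByExpr were tested by quasi-likelihood in edgeR 4.0.16 (R 4.3.3) after TMM scaling, with terms for cross and age, and p-values were adjusted by Benjamini-Hochberg over all genes tested. The interaction was a separate fit. A gene is called at an adjusted p under 0.05. For alleles, autosomal genes averaging 10 or more allelic reads per mouse were fitted with terms for mouse, BL6 allele, maternal allele and each by age, and X-linked genes apart. DESeq2 1.42.0, other scalings and filters, marker terms, each cross alone and leaving out libraries were alternatives. Gene positions come from GENCODE M21. The fits were tested on simulated data with known answers. Other tools were limma 3.58.1, pandas 2.3.3 and numpy 2.4.6 under Python 3.11.15, matplotlib 3.10.9 and, in R, data.table at version 1.17.8.

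Depth was 111.1 M to 214.8 M counts per mouse, of which 35.12% to 36.44% were allelic. Within an age group, the 2 most alike libraries had a chi-square of 45.6 per gene, where sampling noise gives 1, so all libraries were kept as separate replicates. Replicate numbers follow the order of the labels and pair no mice.

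The members, their roles, the microglia-enriched list and the other lists were chosen with earlier results of these data known. Named with values are the members called in a comparison, for age the 3 of each role with the smallest p, the microglia-enriched members and those without overlap, for cross and interaction the 3 with the smallest p, for alleles the 4 largest called effects each way and the X-linked members, and of each other list up to 3 called genes or else the 2 of smallest p. Further members are given by a value only. Some values of single marker genes are not reported here.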

Additional observations from a re-analysis of the deposited data

Results flagged for a closer look

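Of 52 groups of values searched for a mouse far from the others of its group, 4 held one, and chance gives about 1 in 20. Tcirg1 stood at 9.783 CPM in young replicate 2, against 6.793 to 7.467 CPM in the other young mice. Ctsz stood at 30.78 CPM in the same library, above all other young mice. The BL6 share of Tcirg1 in young replicate 2 was 38.1%, against 71.4% or more in the other young mice. These 3 values come from the library with the highest striatal marker sum, 2506 CPM. It also had the highest choroid plexus and oligodendrocyte marker sums of the young mice, 927.9 and 5170 CPM. Young replicate 6, with the next highest striatal sum, 1607 CPM, had 7.467 CPM of Tcirg1, 18.33 CPM of Ctsz and a Tcirg1 BL6 share of 84.3%. The part of the dissection in these values was not tested. The BL6 share of Cd68 was 66.67% in young replicate 6, on 4 BL6 and 2 CAST reads. The difference between the BL6 and CAST copies of Tcirg1 changed between the ages by -1.762 on the log2 scale, by the test of the allele by age term (edgeR adjusted p = 0.0288).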

How the results depend on the processing

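The 15 members named for age were refitted under 23 alternatives, and 340 of the 345 log2 differences kept their sign. With the microglia markers as a term, the exceptions were Smpd1 at -0.0131, Gm2a at -0.101 and Ctsc at -0.267; Ctsc also stood at -0.0592 with the neuron markers as a term and at -0.152 in mice of a CAST mother alone. Members called for age were 0, but 2 with DESeq2 and 0 to 1 on leaving out single mice (Ctsz without young replicate 2). The median of microglia-enriched members exceeded that of general members by 0.281, by 0.239 to 0.374 without single mice, by 0.403 without the 3 striatum-rich libraries and by 0.165 with the microglia term. Called members for the maternal copy were 1, and 0 without the 3 striatum-rich libraries, a fit with fewer mice. Called members for the BL6 share by age were 1, and 0 to 1 without single mice. The log2 difference of Ctsh between BL6 and CAST, near 0, ran from -0.024 to 0.00184 without single mice (2.66e-05 without old replicate 4). Tcirg1 lost its call between the copies without old replicate 3, at 0.445 (edgeR adjusted p = 0.0585). The cause of these changes was not tested. Old and young mice could not be paired because the replicate numbers follow the order of the labels. The allelic fits compared the copies within each mouse. The small part of reads assigned to an allele limits the shares of Cd68, Tcirg1 and Cd63 most, and Arsa had no allelic reads.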
